A study of Homo sapiens with 3 samples.

Results

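Claudins and other tight junction genes were examined in 5637 cells, an established human bladder cancer line. The genes were taken by name, with earlier results of these data known: the claudins CLDN1, CLDN3, CLDN4, CLDN7, CLDN8, CLDN12 and CLDN23, together with OCLN (occludin), TJP1 (ZO-1) and F11R (JAM-A). Of these 10 genes, 9 had a row among the 29960 genes of the deposited table, and F11R had 2 rows. CLDN8 was not analysed here. All 9 genes passed the filter on low counts that left 15643 genes for testing, CLDN3 only through the resistant libraries. The second F11R row, with at most 20 reads, is described on its own and left out of the counts of members. Poly(A) RNA was sequenced from single-cell clones of untreated parental cells, labelled wild type (parental 1, 1 library), and of gemcitabine-resistant cells of the same line, also untreated at the time (resistant 1 and resistant 2, 2 libraries). Gemcitabine is a deoxycytidine analog that blocks DNA synthesis. The labels describe the resistant cells as generated by acute gemcitabine treatment, whereas the study's methods describe repeated exposure at rising concentrations and growth without the drug afterward. Each library stands for 1 clone, so a difference between groups cannot be told apart from a difference between clones. The libraries held 14475531 reads on genes in parental 1, 15836788 in resistant 1 and 17461941 in resistant 2. The deposited group means pool these clones with further clones of the study and carry no SD here. The group means are thus not independent of the 3 libraries.

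Tight junctions are the most apical contacts between epithelial cells, and they seal the space between neighboring cells against water, ions, and solutes. Claudins are the membrane proteins that polymerize into the junctional strands, and the mixture of claudins in a cell sets how tight the seal is and which ions pass. Occludin and JAM-A lie in the same contacts, and ZO-1 is a cytoplasmic scaffold that binds claudin tails and links them to actin. In the bladder, these junctions form part of the barrier that keeps urine out of the tissue.

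The 3 libraries were epithelial by their markers. EPCAM, an epithelial adhesion molecule, was read at 285.0, 337.4 and 291.2 CPM (counts scaled to library size with TMM factors) in parental 1, resistant 1 and resistant 2, and CDH1 (E-cadherin) at 340.3, 397.3 and 320.5 CPM. All 6 epithelial markers were expressed, but not all at a steady level. In both resistant clones 1 was higher, EPCAM, against 35.2% of all tested genes, and 3 were lower, against 34.5%. The 3 were KRT7, KRT8 (2271, 1666 and 1014 CPM) and KRT18 (280.3, 247.9 and 179.5 CPM). Of the 12 urothelial markers, 3, KRT20, UPK1A and UPK3A, had at most 3 reads in any library. The 5 leukocyte markers with a row summed to between 0.780 and 1.53 CPM, and the 4 endothelial markers to between 0.426 and 2.02 CPM, and CD3E, CDH5 and TEK had at most 3 reads in any library. The 5 fibroblast markers summed to 172.3, 154.9 and 145.4 CPM, nearly all from COL1A1 and COL1A2, while LUM had 0 reads and COL3A1 at most 2. All 8 tested urothelial markers were lower in both resistant clones, against 34.5% of all tested genes, and 2 were called lower, KRT5 and UPK1B, against 0.582%. KRT5, a basal keratin, was read at 271.7 CPM in parental 1 and at 9.78 and 13.8 CPM in resistant 1 and 2, and it fell by 4.52 on the log2 scale (SE 0.38, adjusted p = 0.000598, edgeR). The log2 ratio of its group means, which the authors made over more clones, was -2.49. UPK1B, an uroplakin of the apical plaque, had 74 reads in parental 1 and 0 in both resistant clones, while its group means were 20.4 for resistant and 70.1 for parental clones. UPK1B passed the filter only through parental 1, so it had to be among the tested markers lower in both. Outside the filter, UPK2 did not go this way, with 3, 9 and 5 reads. Also at least 1.5-fold lower in both were KRT17 (195.8, 17.2 and 53.3 CPM), GATA3 (96.2, 63.9 and 61.6 CPM) and the epithelial keratin KRT7 (1987, 1047 and 868 CPM). KRT17 was not called by edgeR with TMM scaling and the filter (adjusted p = 0.078, edgeR), but it was with DESeq2 size factors (0.020), on library totals (0.018), without the filter (9.8e-09) and in DESeq2 (0.0021). By the group means GATA3 was at 0.896 and KRT7 at 0.821 of the parental level. The endothelial receptor KDR had 0, 7 and 20 reads and the monocyte marker CD14 had 3, 12 and 18. Neither was called by edgeR with TMM scaling and the filter, but KDR was without the filter (adjusted p = 0.039, edgeR). The part of these differences in the claudin values was not tested.

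CLDN3 and CLDN4 showed the largest differences among the 9 genes, and both were higher in the resistant clones. Both encode sealing claudins that also act as receptors for an enterotoxin of Clostridium perfringens, and their genes are neighbors on chromosome 7. CLDN3 (ENSG00000165215, hg19 chromosome 7, 73183328 to 73184600, minus strand) had 7 reads in parental 1, 135 in resistant 1 and 169 in resistant 2, or 0.497, 8.25 and 9.73 CPM. The parental clone lay far below both resistant clones, which were close to each other. CLDN3 was 16.6-fold higher in resistant 1 than in parental 1 (95% exact counting interval 7.85 to 42.1) and 19.6-fold higher in resistant 2 (9.30 to 49.5), with both ratios taken against the same 7 parental reads. Its log2 fold change was 4.16 (SE 0.65), with an adjusted p of 0.020 by edgeR's quasi-likelihood test. In bulk RNA, more cells with the transcript and more transcript per cell cannot be told apart. The test takes its spread from the 2 resistant libraries and assumes that parental clones vary alike. CLDN3 was the only member called, against 0.876% of all tested genes called in either direction and 0.294% called higher, and none was called lower, against 0.582%. It passed the filter only through the resistant libraries, so it had to be higher in at least 1 of them. At an unadjusted p under 0.05 stood CLDN3 and CLDN4, both higher, where 9.7% of all tested genes stood in either direction and 4.85% higher. In the means the authors give for each group, CLDN3 stood at 94.6 normalized counts for resistant and 12.9 for parental clones, a 6.88-fold difference after a pseudocount of 1. The group means therefore gave a fold more than 1.5 times smaller than the 3 libraries did.

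CLDN4 (ENSG00000189143, hg19 chromosome 7, 73213872 to 73247014, plus strand) was already abundant in the parental clone and higher still in the resistant clones. It had 4679 reads in parental 1, 12002 in resistant 1 and 16681 in resistant 2, which were 332.0, 733.8 and 960.6 CPM. Both resistant clones lay above parental 1, as they did for 35.2% of all tested genes. The ratios to parental 1 were 2.21 (95% exact counting interval 2.14 to 2.29) and 2.89 (2.80 to 2.99). A log2 fold change of 1.35 (SE 0.39) did not pass the threshold in edgeR (adjusted p = 0.22, edgeR), whereas DESeq2 gave an adjusted p of 0.043. Its group means were 9777 and 4117 normalized counts, resistant and parental, a 2.37-fold difference in the same direction.

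**Figure D1:**
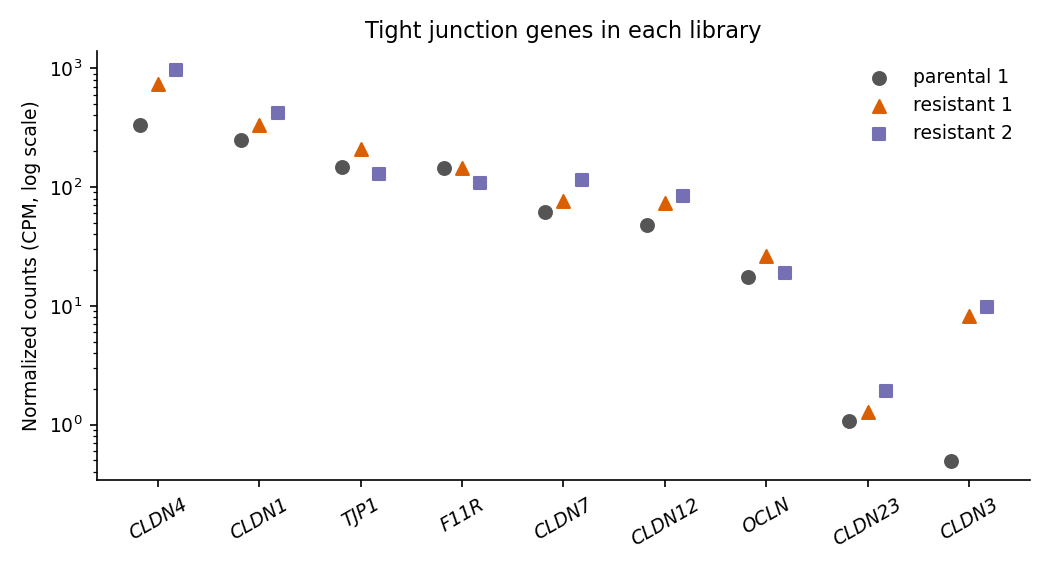
Normalized counts (CPM, log scale) of the 9 genes in each of the 3 libraries, 1 point per library and ordered by the parental level. CLDN3 lies at 0.497 CPM in parental 1 and at 8.25 and 9.73 CPM in the resistant clones, while TJP1 and F11R show no such gap.

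The genes around CLDN3 and CLDN4 were read out because the pair is adjacent, over a stretch chosen after its values had been seen. Between the annotated end of CLDN3 and the start of CLDN4 lay 29271 bases. Of the 18 other tested genes whose lower coordinate lies within 0.5 Mb of that of CLDN3, 13 were higher in both resistant clones than in parental 1, against 35.2% of all tested genes, and 3 were lower in both, against 34.5%. At least 1.5-fold higher in both were 8 of the 18, against 10.2% of all tested genes. Of these 8, WBSCR28 (2, 20 and 16 reads) passed the filter only through the resistant libraries. WBSCR28 therefore had to be higher in at least 1 of them. None of the 18 was called by edgeR, against 0.876% of all tested genes, and DESeq2 called 1, STX1A. In edgeR 5 of the 18, WBSCR28 among them, had an unadjusted p under 0.05, against 9.7% of all tested genes. The higher genes sat on both sides of the claudin pair. STX1A, a synaptic-type syntaxin of membrane fusion, lay 69.8 kb before CLDN3, measured between lower coordinates, and had 339, 942 and 1391 reads, a log2 fold change of 1.52 (SE 0.40). ABHD11, a mitochondrial hydrolase, lay 32.9 kb before it and had 345, 737 and 1020 reads. WBSCR27, which lies 1905 bases beyond CLDN4 on the opposite strand, had 75, 249 and 236 reads. LAT2, an adaptor of immune receptor signaling, lay 430.7 kb after CLDN3 and had 55, 233 and 270 reads, a log2 fold change of 1.93 (SE 0.47). BCL7B had 807, 1555 and 1536 reads and was also at least 1.5-fold higher in both. So were POM121B (36, 66 and 74 reads) and ELN (10, 19 and 46 reads). The 3 genes lower in both were MLXIPL, VPS37D and BAZ1B, a chromatin remodeling subunit. Their log2 ratios to parental 1 were -1.13 and -0.34 for MLXIPL, -0.82 and -0.035 for VPS37D, and -0.10 and -0.25 for BAZ1B. RFC2, a replication clamp loader subunit, lay near the parental level, at 0.06 and 0.07. Over the wider window of 5 Mb on each side, the median log2 ratio of the group means of 70 expressed genes was 0.13, and CLDN3 lay 2.65 and CLDN4 1.12 above it.

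**Figure D2:**
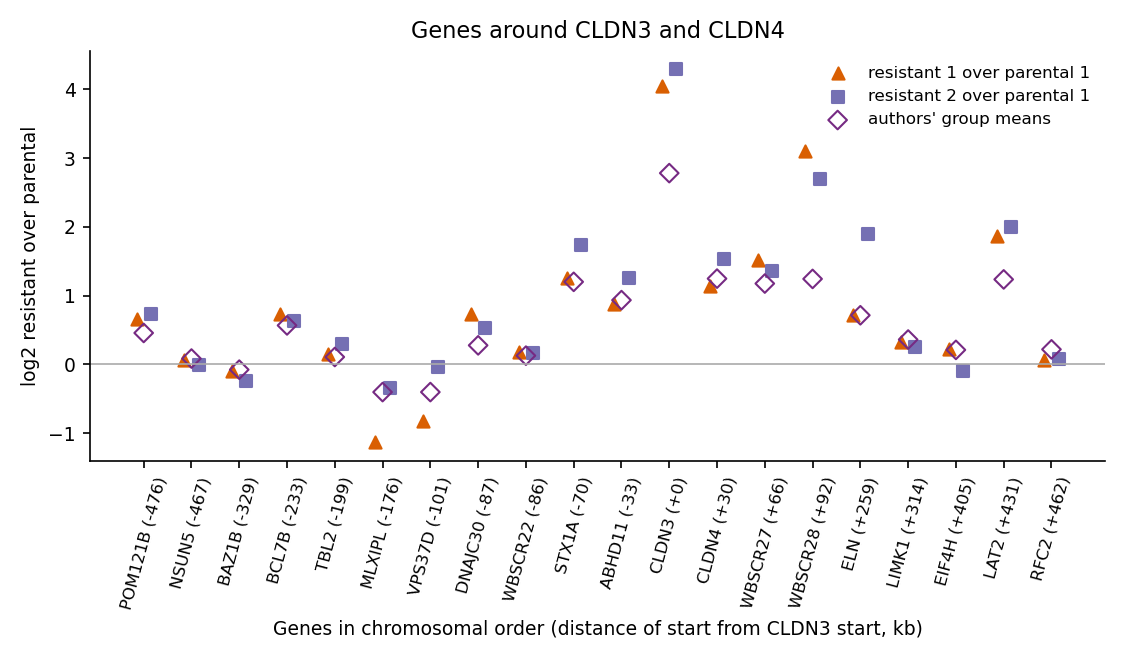
The log2 ratio of resistant to parental for the 20 tested genes within 0.5 Mb of CLDN3 in chromosomal order, with the distance between lower coordinates in kb, where triangles and squares are the 2 resistant libraries over parental 1 and diamonds the authors' group means. STX1A, ABHD11, CLDN3, CLDN4 and WBSCR27 lie next to each other and above 0 in every comparison. BAZ1B and RFC2 lie near 0, and MLXIPL and VPS37D lie below 0 in every comparison.

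The sequences upstream of CLDN3 and CLDN4 are shown because these genes carried the largest differences. The RefSeq promoter table (GRCh38.p14, a build other than that of the deposited coordinates) held 12 promoters for 7 members, and F11R, CLDN8 and CLDN23 had no entry. Given below are the 250 bases before the RefSeq transcription start of CLDN3 (chr7:73770271-73770520, minus strand) and of CLDN4 (chr7:73830746-73830995, plus strand). These windows lie farther apart than the 29271 bases between the deposited models. The RefSeq start of CLDN4 is thus not the start of its deposited model. The bases run 5′ to 3′, with each CG dinucleotide in capitals.
CLDN3: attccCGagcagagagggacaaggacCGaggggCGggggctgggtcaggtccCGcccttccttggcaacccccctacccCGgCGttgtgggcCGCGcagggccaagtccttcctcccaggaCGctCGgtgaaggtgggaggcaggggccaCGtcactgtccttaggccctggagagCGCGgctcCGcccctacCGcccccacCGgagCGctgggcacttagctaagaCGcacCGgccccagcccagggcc
CLDN4: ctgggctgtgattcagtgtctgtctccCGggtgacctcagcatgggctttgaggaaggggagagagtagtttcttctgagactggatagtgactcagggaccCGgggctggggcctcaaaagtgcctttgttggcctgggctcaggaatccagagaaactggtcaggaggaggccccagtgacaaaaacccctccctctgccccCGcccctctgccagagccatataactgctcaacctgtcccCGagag
The CLDN3 promoter held 19 CG dinucleotides and 71.6% G or C, against 4 and 58.8% in CLDN4. The medians over all 35116 promoters were 11 and 58.0%. GGGCGG, the GC box bound by Sp factors, occurred 4 times before CLDN3 and once before CLDN4 on either strand, and 42.6% of all promoters held it. CLDN4 held TGACTCA, an AP-1 site in letters, at 161 bases before the start, as did 4.20% of all promoters on either strand. CAGGTG, the E-box bound by the SNAI and ZEB repressors, CCGGTT, the core of grainyhead sites, the whole grainyhead palindrome AACCGGTT, which contains that core, and CCGTTA, a core bound by OVOL factors, were in neither window. A match or its lack in these windows describes letters and not binding.

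CLDN1, CLDN7 and CLDN12 were each higher in both resistant clones than in parental 1, but none was called. CLDN1, the claudin of the epidermal water barrier (ENSG00000163347, hg19 chromosome 3, 190023490 to 190040264, minus strand), had 3498 reads in parental 1, 5487 in resistant 1 and 7241 in resistant 2, or 248.2, 335.5 and 417.0 CPM. Its log2 fold change was 0.60 (SE 0.38, adjusted p = 0.70, edgeR). The direction turned in the authors' group means, at 4557 for resistant and 4650 for parental clones, a log2 ratio of -0.03. For CLDN1 the difference among the 3 labeled clones thus did not carry over to the pooled groups.

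CLDN7 forms complexes with EpCAM in many carcinomas (ENSG00000181885, hg19 chromosome 17, 7163222 to 7167302, minus strand). It had 870, 1243 and 1979 reads in parental 1, resistant 1 and resistant 2, or 61.7, 76.0 and 114.0 CPM. Resistant 1 lay near the parental clone and resistant 2 stood just under 1.5-fold above resistant 1 (95% exact counting interval 1.40 to 1.61). The log2 fold change was 0.62 (SE 0.39, adjusted p = 0.70, edgeR), and the log2 ratio of the group means was 0.24, close to the median of 0.17 over 133 expressed neighbors within 5 Mb. The gene overlaps ELP5 by 38 bases on the opposite strand. The second RefSeq promoter of CLDN7 is shown because it held more E-boxes than any other member promoter, 4 copies of CAGGTG on either strand, where 17.5% of all promoters held at least 1. These are the 250 bases before that start (chr17:7262479-7262728, minus strand, GRCh38.p14), with CAGGTG and its reverse complement CACCTG in capitals.
CLDN7: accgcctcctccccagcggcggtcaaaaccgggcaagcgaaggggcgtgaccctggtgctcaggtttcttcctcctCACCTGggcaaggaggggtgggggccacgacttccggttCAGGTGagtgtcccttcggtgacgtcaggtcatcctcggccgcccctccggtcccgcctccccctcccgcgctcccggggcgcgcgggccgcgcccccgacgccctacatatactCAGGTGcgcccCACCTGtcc
This window also held CCGGTT 2 times, against 5.99% of all promoters with at least 1 copy. CCGGTT was also found in the promoter of CLDN1 and in the second promoter of OCLN.

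CLDN12, a claudin linked to paracellular calcium passage (ENSG00000157224, hg19 chromosome 7, 90013035 to 90142716, plus strand), had 675, 1189 and 1457 reads in parental 1, resistant 1 and resistant 2, or 47.9, 72.7 and 83.9 CPM. Both resistant clones were at least 1.5-fold above the parental clone, with a log2 fold change of 0.71 (SE 0.36, adjusted p = 0.59, edgeR). Its model shares 46979 bases with CDK14 and 7735 bases with GTPBP10 on the same strand, so part of its reads could belong to these genes. CLDN23, a claudin of differentiated epithelia (ENSG00000253958, hg19 chromosome 8, 8559448 to 8561616, plus strand), was close to the limit of detection, with 15, 21 and 33 reads. The counting intervals of its ratios to parental 1, 0.593 to 2.52 for resistant 1 and 0.943 to 3.54 for resistant 2, both included 1. The median log2 ratio of the group means over 30 expressed neighbors of CLDN23 was 0.47, above the 0.34 of the gene itself.

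In total, 7 of the 9 genes were higher in both resistant clones than in parental 1, against 35.2% of all tested genes, and none was lower in both, against 34.5%. At least 1.5-fold lower in both was none, against 9.22%. At least 1.5-fold higher in both were CLDN3, CLDN4 and CLDN12, or 3 of 9, against 10.2% of all tested genes. In resistant 2 alone 6 of the 9 were at least 1.5-fold higher, against 20.5% of all tested genes, and in resistant 1 alone 4, against 15.9%. All of these ratios share the parental 1 library. CLDN3 counts among the higher genes each time, but it passed the filter only through the resistant libraries. CLDN3 thus had to be higher in at least 1 of them. The median log2 fold change of the 9 genes was 0.60, beside 0.03 over all tested genes, and the median log2 ratio of the group means was 0.24, beside 0.02. By the group means CLDN3 and CLDN4 were at least 1.5-fold higher in the resistant group, where 10.6% of all tested genes were, and none was at least 1.5-fold lower, where 9.69% were.

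**Figure D3:**
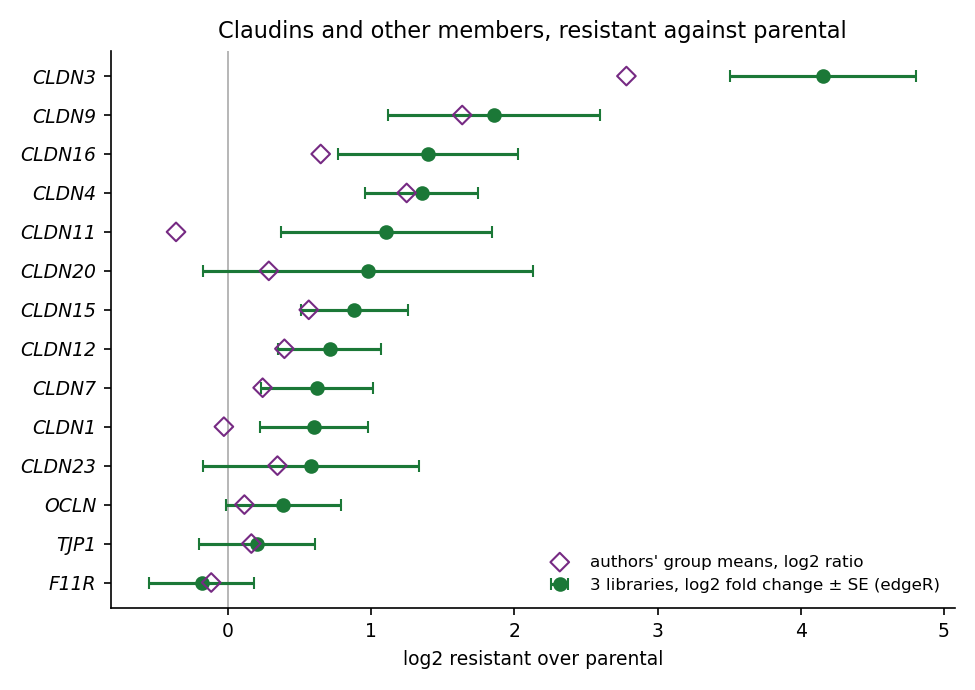
The log2 fold change of resistant over parental from the 3 libraries (filled points, bars are the SE from edgeR) and the log2 ratio between the authors' means (open diamonds) for the 9 members and the 5 other tested claudins. CLDN3 has the largest value on both scales, and the diamonds of CLDN1 and CLDN11 lie below 0 while their points lie above it.

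The members other than claudins had no common direction. OCLN, which carries a MARVEL domain and marks the strands (ENSG00000197822, hg19 chromosome 5, 68788119 to 68853931, plus strand), had 244 reads in parental 1, 433 in resistant 1 and 326 in resistant 2, or 17.3, 26.5 and 18.8 CPM. Resistant 2 lay near the parental clone and its counting interval against parental 1, 0.916 to 1.29, included 1. For OCLN, the log2 fold change was 0.39 (SE 0.40, adjusted p = 0.88, edgeR). OCLN has a partial near-identical copy in the same region, and its model overlaps the pseudogene GUSBP3 on the other strand, so its count is uncertain. Its 43 expressed neighbors had a median log2 ratio of the group means of -0.27, and OCLN lay 0.38 above that median.

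TJP1, which encodes the scaffold ZO-1 (ENSG00000104067, hg19 chromosome 15, 29991571 to 30261068, minus strand), had 2079, 3432 and 2252 reads, or 147.5, 209.8 and 129.7 CPM in parental 1, resistant 1 and resistant 2. The resistant clones lay on either side of the parental clone. For TJP1, the log2 fold change was 0.20 (SE 0.41, adjusted p = 0.95, edgeR). An antisense transcript inside TJP1, RP11-680F8.3, had 1, 27 and 7 reads across these libraries. Without a stated strand setting the reads of such pairs cannot be separated.

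F11R, which encodes the immunoglobulin-type adhesion molecule JAM-A (ENSG00000158769, hg19 chromosome 1, 160965001 to 161008784, minus strand), had 2021, 2346 and 1892 reads, or 143.4, 143.4 and 109.0 CPM. Resistant 1 was at the parental level, with a ratio of 1.00 (95% exact counting interval 0.942 to 1.06), and resistant 2 was lower, at 0.760. The log2 fold change of -0.18 (SE 0.37) was smaller than its error. A second model of F11R (ENSG00000270149) overlaps it by 41006 bases and held 8, 20 and 9 reads, with a ratio of resistant 2 to resistant 1 of 0.424 (95% exact counting interval 0.170 to 0.974). TSTD1, a sulfurtransferase gene that overlaps F11R by 1360 bases on the same strand, had 130, 230 and 308 reads, and reads in this stretch could be split between both genes.

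Between the resistant clones, TJP1 was the only one of the 9 genes at least 1.5-fold apart, the second F11R row left aside, at a ratio of resistant 2 to resistant 1 of 0.618 (95% exact counting interval 0.586 to 0.652). Over all tested genes, 31.5% were that far apart. All 6 member claudins were higher in resistant 2 than in resistant 1, against 49.4% of all tested genes. The ratios ran from 1.15 for CLDN12 to just under the 1.5-fold limit for CLDN7, although the intervals of CLDN3 (0.935 to 1.49) and CLDN23 (0.831 to 2.69) included 1. OCLN, TJP1 and F11R were lower in resistant 2, with ratios of 0.709, 0.618 and 0.760. Of the 5 other tested claudins, only CLDN15 was higher in resistant 2, at 1.11. CLDN9, CLDN11, CLDN16 and CLDN20 were lower, at 0.565, 0.496, 0.884 and 0.685. No replicate culture of either clone was available to test this.

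Per length, CLDN4 was the most abundant claudin in each of the 3 libraries, though not in the authors' parental mean. There CLDN1 stood at 1336 and CLDN4 at 989 normalized counts per kb, against 1309 and 2349 in the resistant mean. The FPKM of CLDN4, the authors' count scaled to gene length and library total, was 77.6 in parental 1, 182.0 in resistant 1 and 229.5 in resistant 2. CLDN1 followed at 69.4, 99.5 and 119.1 FPKM and CLDN7 at 31.3, 40.8 and 58.9 FPKM. In the parental clone CLDN4 and CLDN1 were close, whereas in the resistant clones CLDN4 stood well above CLDN1. F11R came next at 28.9, 30.6 and 22.4 FPKM, ahead of TJP1 at 18.1, 27.3 and 16.2 FPKM, and CLDN12 at 13.0, 20.9 and 23.3 FPKM passed both in resistant 2. OCLN was low, at 2.62, 4.25 and 2.90 FPKM. CLDN3 was the lowest member in parental 1 at 0.380 FPKM, below CLDN23 at 0.478, and it ranked above OCLN and CLDN23 in both resistant clones at 6.70 and 7.60 FPKM. Even so, CLDN3 made up 1.79% and 1.65% of the summed claudin FPKM in resistant 1 and 2, against 0.187% in parental 1. The share of CLDN4 was 38.2% in parental 1 and 48.7% and 49.7% in the resistant clones, and that of CLDN1 was 34.1%, 26.6% and 25.8%. The sum over 21 claudins was 203.3, 373.7 and 461.5 FPKM.

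**Figure D4:**
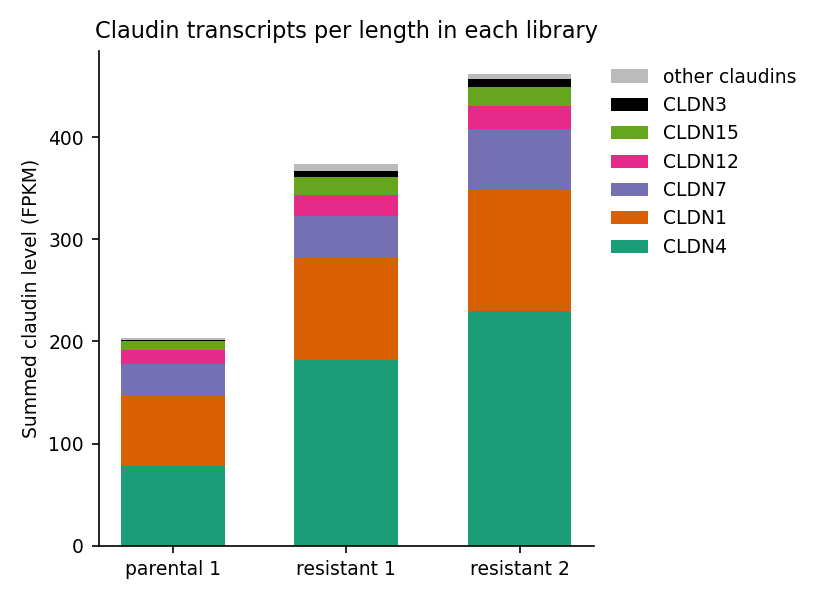
Summed claudin level (FPKM, from 0) in each library, split by claudin. The sum is 203.3 FPKM in parental 1 against 373.7 and 461.5 FPKM in resistant 1 and 2, with CLDN4 as the largest part in each.

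Of 17 further claudins, 15 had a row and 5 passed the filter. All 5 were higher in both resistant clones than in parental 1, against 35.2% of tested genes, as were the 6 member claudins. CLDN20 and CLDN3 passed the filter only through resistant libraries, so each had to be higher in at least 1 of them. Claudins outside the filter did not all go this way: CLDN6 had 3, 1 and 2 reads and CLDN2 had 1, 1 and 5. By the group means 9 of the 11 tested claudins were higher, with CLDN1 and CLDN11 as the exceptions. None of the 5 was called by edgeR, against 0.876% of all tested genes, or by DESeq2. CLDN9 and CLDN15 had an unadjusted p under 0.05, against 9.7% of all tested genes. CLDN15, a sodium channel-forming claudin of the intestine, was the most abundant of them, at 20.3, 35.5 and 39.3 CPM (log2 fold change 0.88, SE 0.37, adjusted p = 0.48, edgeR). CLDN9, a claudin of the inner ear, had 12 reads in parental 1 and 65 and 39 in the resistant clones (log2 fold change 1.86, SE 0.74, adjusted p = 0.44, edgeR), and its group means were 35.6 and 10.8 normalized counts. CLDN16, a magnesium-handling claudin of the kidney, had 20, 65 and 61 reads, and its model begins 65 bases from the 5′ end of CLDN1 on the opposite strand. CLDN11, the claudin of myelin, had 17, 57 and 30 reads with a log2 fold change of 1.10 (SE 0.74), but its group means were 32.7 for resistant and 42.3 for parental clones. CLDN20 had 4, 11 and 8 reads. Among the claudins outside the filter, CLDN2, the cation and water pore, and CLDN5, the endothelial claudin, had at most 5 and 4 reads. CLDN6, CLDN14, CLDN24, CLDN17, CLDN18 and CLDN34 had at most 3 reads in any library. CLDN17, CLDN18 and CLDN34 had 0, which allows a level of up to 0.213 CPM in parental 1, 0.183 in resistant 1 and 0.173 in resistant 2 by counting error. Of the 11 tested claudins, 4 lie on chromosome 7.

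The other junction genes had no common direction, and the difference between them and the claudins was not tested. Of 14 other junction membrane and plaque proteins, 11 were tested, 4 were higher and 5 lower in both resistant clones than in parental 1. Over all tested genes these shares were 35.2% and 34.5%. None of the 11 was called by edgeR, against 0.876% of all tested genes, or by DESeq2. An unadjusted p under 0.05 was found for 1, CGN, against 9.7%. Their median log2 fold change was 0.05. CGN (cingulin), a plaque protein that tethers the junction to actomyosin, was read at 48.4, 116.0 and 101.8 CPM (log2 fold change 1.17, SE 0.37, adjusted p = 0.28, edgeR). CRB3, an apical polarity protein, was read at 4.19, 6.36 and 10.7 CPM, and ESAM, an adhesion molecule of endothelium, had 11, 21 and 22 reads. MARVELD2 (tricellulin) and LSR (angulin-1), named for their roles after their values were seen, had log2 fold changes of 0.05 and 0.12, each smaller than its SE. ILDR2 had at most 3 reads in any library. Of 22 polarity and scaffold genes, 20 were tested and none was called by edgeR, against 0.876% of all tested genes, or by DESeq2. An unadjusted p under 0.05 was found for none of the 20, against 9.7%. Of the 20, 5 were higher and 8 lower in both resistant clones, against 35.2% and 34.5% of all tested genes, and the median was 0.02. Outside the filter, PARD3B had 4, 1 and 1 reads and AMOT at most 3 in any library. MPDZ, a scaffold with many PDZ domains that binds claudin tails, was the only one of the 20 tested genes at least 1.5-fold from the parental clone in both, at 65.1 CPM in parental 1 and 40.6 and 38.1 CPM in the resistant clones (log2 fold change -0.73, SE 0.34, adjusted p = 0.55, edgeR).

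Of the 6 claudin partners and surface proteases, 5 were higher in both resistant clones, against 35.2% of all tested genes. None was lower in both, against 34.5%. None was called by edgeR, against 0.876% of all tested genes, or by DESeq2. None had an unadjusted p under 0.05, against 9.7%, and their median log2 fold change was 0.34. EPCAM, which binds CLDN7, had a log2 fold change of 0.14 (SE 0.36).

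Transcription factors and splicing factors of epithelia were mixed. Of 10 listed, 9 were tested, and 4 were higher and 4 lower in both resistant clones, against 35.2% and 34.5% of all tested genes. HNF4A had at most 3 reads in any library. None was called by edgeR with TMM scaling and the filter, against 0.876% of all tested genes. GRHL3 and KLF4 had an unadjusted p under 0.05, against 9.7%, and DESeq2 called GRHL3. GRHL3, a grainyhead factor of barrier formation, had 28 reads in parental 1, 218 in resistant 1 and 200 in resistant 2, or 1.99, 13.3 and 11.5 CPM. Its log2 fold change of 2.64 (SE 0.52) came with an adjusted p of 0.054 in edgeR. It passed the threshold in the other edgeR settings (adjusted p of 0.023 with DESeq2 size factors, 0.024 on library totals and 0.0010 without the filter) and in DESeq2 (0.0043). By the authors' group means GRHL3 was at 129.4 for resistant and 51.7 for parental clones. GRHL2, the grainyhead factor that activates CLDN4 in other epithelia and named after its value was seen, was more abundant and had a log2 fold change of -0.53 (SE 0.35). KLF4, a factor of terminal differentiation, was read at 37.3, 72.1 and 99.7 CPM (log2 fold change 1.20, SE 0.39, adjusted p = 0.30, edgeR). ESRP2, an epithelial splicing regulator, was 1.51-fold higher in both resistant clones, and ELF3, an epithelial ETS factor, was at 0.640 and 0.652 of the parental level. None of the 5 repressors of claudin genes was called by edgeR, against 0.876% of all tested genes, or by DESeq2. An unadjusted p under 0.05 was found for none of these 5, against 9.7%. SNAI2 and TWIST1, named after their values were seen, had the most reads, and SNAI2 had a log2 fold change of -0.14 (SE 0.39). TWIST1 had 313, 507 and 1006 reads, with a log2 fold change of 1.00 (SE 0.45, adjusted p = 0.52, edgeR). ZEB1 had 4, 7 and 20 reads and ZEB2 had 45, 28 and 28.

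**Figure D5:**
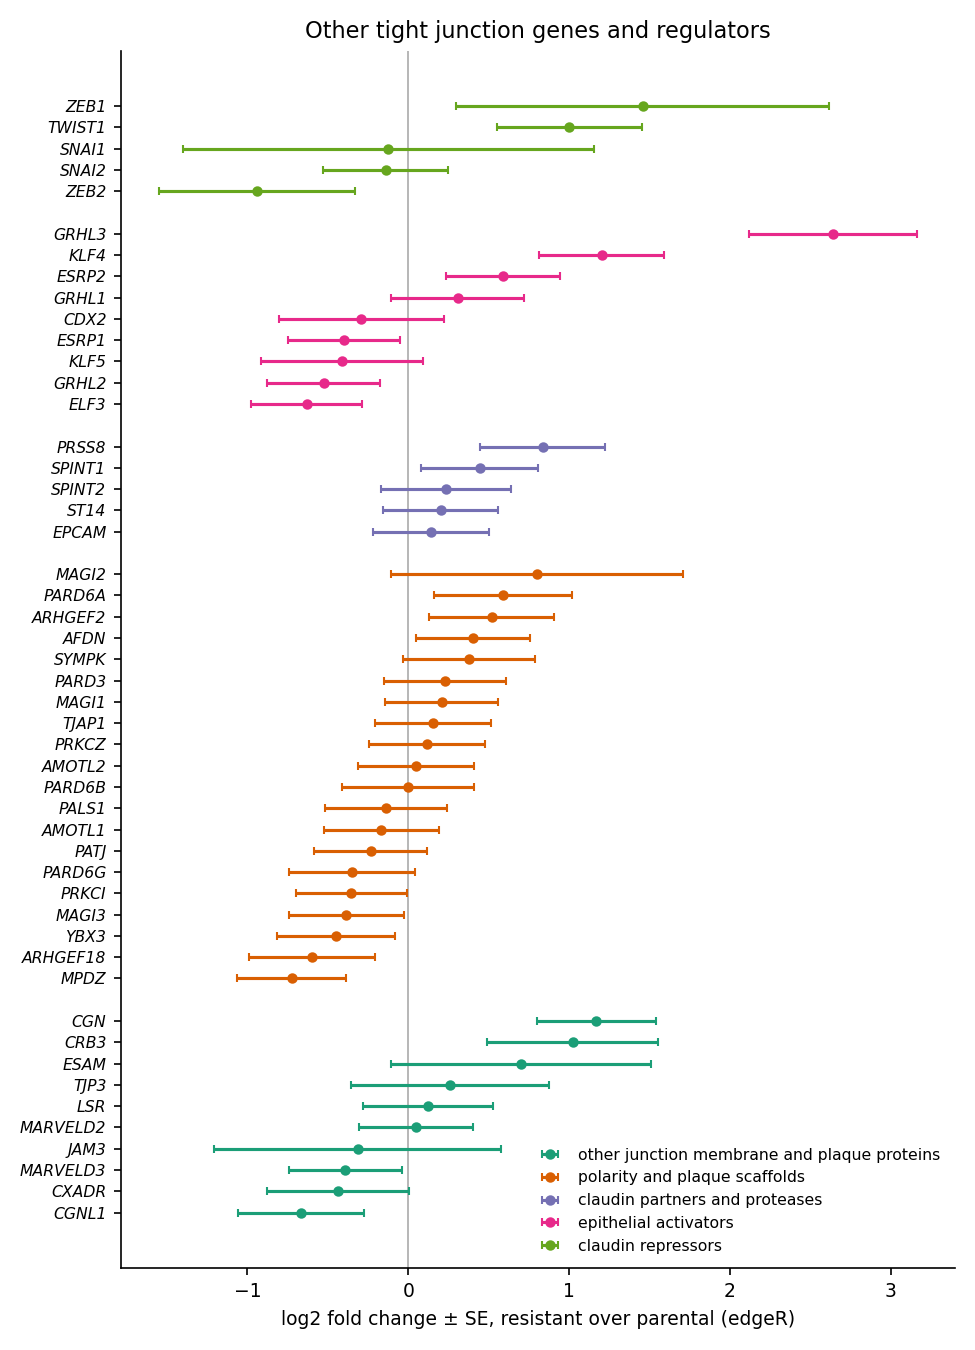
The log2 fold change of resistant over parental with its SE (edgeR) for the tested genes of 5 lists that are reported here, grouped by list. GRHL3, at 2.64, lies farthest from 0, and MPDZ, at -0.73, is the lowest of the scaffold genes.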

How the data were processed

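RNA of 3 labeled libraries was analyzed, 1 of a parental and 2 of resistant clones. Read counts per gene were used as the authors deposited them, without normalization. The authors deposited FPKM values that equal count over gene length and library total. The group signal is the mean that the authors deposited of counts divided by size factors. The table also holds the authors' log2 fold changes and p-values, which were not used, and neither were 6 per-library columns without a sample label. The submitters' processing notes name hg19 and CASAVA 1.8. The aligner, the counting tool and its strand setting are not given in the sources used here.

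Counts were scaled by TMM factors and tested with edgeR 4.0.16 (R 4.3.3) by the quasi-likelihood test after filterByExpr, resistant against parental, with Benjamini-Hochberg adjustment over 15643 genes and a threshold of 0.05. The fit had 1 residual degree of freedom, from the resistant libraries. SE is the log2 fold change over the root of F. The fit was tested on simulated counts of 1 parental and 2 resistant libraries, with 1 spread for all genes. There it called 2 of 50 genes changed 2-fold, 19 of 50 changed 4-fold and 44 of 50 changed 8-fold. Of 15443 unchanged genes it called 5. Most 2-fold changes were thus missed in the simulation. Group means were compared as log2 ratios after a pseudocount of 1. Ratios of 2 libraries carry exact Clopper-Pearson counting intervals at 95%, which cover counting error only. Neighbors were genes with a mean of the group means of at least 10 within 5 Mb on each side. Alternatives were DESeq2 1.42.0, other scaling, no filter, other folds, pseudocounts and windows, and single libraries.

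The members and gene lists were chosen with earlier results of these data known. All members were named, and of the other listed genes those called or at least 1.5-fold from parental 1 in both resistant libraries in 1 direction, with exceptions named as such and marker genes as checks. Symbols were matched by name and 4 by identifier. The stretch around CLDN3, the searches for OVOL, GC box and AP-1 motifs, the single-library values of neighbors and the count at an unadjusted p were added after seeing the data. Protein sequences were not used here. Some listed genes count in the lists but are not reported here by name. Libraries were compared as clones, and nothing says that cultures were replicated. Python 3.11.15 with scipy 1.17.1 served for the other steps.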

Additional observations from a re-analysis of the deposited data

How the results depend on the processing

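CLDN3 was called under edgeR with each scaling, without the filter and under DESeq2 (adjusted p from 3.4e-06 to 0.020). DESeq2 called 2 members, CLDN4 being the other (adjusted p = 0.043), and the adjusted p of CLDN4 under edgeR lay between 0.056 and 0.22. GRHL3 and KRT17 passed the threshold in these same alternatives but not with TMM scaling and the filter. Over all genes the 137 calls of edgeR (33.6% higher in the resistant clones) became 235 with DESeq2 size factors (40.9%), 230 on library totals (43.5%), 534 without the filter (51.1%) and 253 under DESeq2 (51.0%), and 1517 genes had an unadjusted p under 0.05. Directions turned for CLDN1 with the authors' group means (-0.029 in place of 0.60), for TJP1 without resistant 1 (range -0.19 to 0.51 over single libraries) and for F11R without resistant 2 (range -0.40 to 0.00027). The count of members at least 1.5-fold above parental 1 was 4 to 6 with 1 resistant library left out, 6 without resistant 1. At 2-fold, 0 of the 9 genes were apart between the resistant clones, the second F11R row (0.424) left aside. The median around CLDN1 moved from 0.02 to -0.076 within 2 Mb, to -0.0098 at a minimum mean of 50 and to -0.025 in resistant 2 over parental 1, and that around TJP1 from 0.15 to -0.040 in resistant 2. Counts over genes could not be refitted with 1 library in each group, since no residual degree of freedom remains. The cause of these changes was not tested. Low depth limits CLDN23, CLDN20 and the parental value of CLDN3, which rests on 7 reads. No paired analysis was possible because the labels give no pairing of parental with resistant clones.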
